A study of Mus musculus with 10 samples.

Results

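The 51 genes described here encode the machinery of mitosis: cyclin-dependent kinase 1 with its cyclins and regulators, the mitotic kinases, the proteins that start anaphase, the kinesin motors, the proteins that shape the spindle, the proteins that divide the cell in cytokinesis, and the topoisomerase and condensins that fold chromosomes. They were chosen by gene symbol, with earlier results of these data known, and all 51 were found among the 24544 genes of the count table. Shares of members set against all genes are therefore descriptions of a list that was not chosen blind. The libraries came from mouse long-term hematopoietic stem cells, the rare cells of the marrow from which all blood lineages are renewed. Both groups came from Hoxb5-mCherry mice aged 2 to 3 months, a reporter strain in which a red fluorescent protein reports Hoxb5. Cells of both groups were sorted by the same gate (lineage-negative, Hoxb5+, cKIT+, CD150+, SCA1+, and CD34-, CD48- and FLK2-), and they differed in surface neogenin-1, a receptor: 5 libraries were NEO1+ and 5 were NEO1-. Each library held 250 to 500 cells pooled from 2 mice, so no value belongs to a single animal. The labels give no sex and do not say whether mice were shared between libraries, so p-values measure the spread between these libraries.

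Most stem cells of adult marrow rest outside the cell cycle, and many mitotic transcripts are made mainly late in the cycle, in G2 and M phase. CDK1 bound to cyclin A or B drives entry into mitosis, and the anaphase-promoting complex with its activator CDC20 then destroys the cyclins and securin to let chromosomes part. Many of these genes are repressed in resting cells by the DREAM complex and switched on by the B-MYB and FOXM1 factors, which act through a promoter element named the cell cycle genes homology region (CHR). A CCAAT box, bound by NF-Y, often lies close to it.

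These elements were read in the promoters of the members. The members were chosen as mitotic genes, many of which are regulated through these elements. The shares that follow therefore describe the choice of genes and not the difference between groups. RefSeq promoters (GRCm38.p6, 250 bases before to 50 after the start, with a gene counted when any of its windows held the letters) matched 45 of the 51 members by symbol. The letters TTTGAA or TTCGAA, on either strand, stood in 34 of the 45 (75.6%), against 21.7% of the 27025 genes in the promoter table. CCAAT, on either strand, stood in 35 of the 45 (77.8%), against 41.1% of all genes. Both were present in 30 of the 45 (66.7%), against 8.61% of all genes. A set of 6 windows of 120 bases that end at the base before the start are shown for members whose groups did not overlap, 5 from promoters that hold both kinds of letters and that of Gtse1, which held CCAAT but no CHR letters. The CCAAT of Mki67 lies before the stretch shown. Capitals mark the CHR letters and CCAAT, each also as its reverse complement. The capital CC that ends the Gtse1 window begins a CCAAT that runs past the start. The windows are chr10:69352913-69353032 (minus strand) for Cdk1, chr4:118437344-118437463 (minus) for Cdc20, chr11:99024190-99024309 (minus) for Top2a, chr7:135716380-135716499 (minus) for Mki67, chr3:27153879-27153998 (minus) for Ect2 and chr15:85859587-85859706 (plus) for Gtse1.
Cdk1: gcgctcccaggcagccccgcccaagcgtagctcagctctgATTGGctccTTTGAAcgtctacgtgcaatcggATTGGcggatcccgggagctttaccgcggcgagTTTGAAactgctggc
Cdc20: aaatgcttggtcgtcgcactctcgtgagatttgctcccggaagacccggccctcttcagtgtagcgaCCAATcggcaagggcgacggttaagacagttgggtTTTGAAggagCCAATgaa
Top2a: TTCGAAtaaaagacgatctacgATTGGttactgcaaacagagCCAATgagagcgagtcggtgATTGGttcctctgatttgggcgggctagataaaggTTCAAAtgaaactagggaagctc
Mki67: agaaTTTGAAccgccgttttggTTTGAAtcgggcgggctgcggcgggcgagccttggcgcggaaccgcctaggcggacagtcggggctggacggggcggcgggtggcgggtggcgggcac
Ect2: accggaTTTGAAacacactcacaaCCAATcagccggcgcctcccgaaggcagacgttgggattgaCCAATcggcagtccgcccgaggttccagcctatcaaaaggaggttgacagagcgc
Gtse1: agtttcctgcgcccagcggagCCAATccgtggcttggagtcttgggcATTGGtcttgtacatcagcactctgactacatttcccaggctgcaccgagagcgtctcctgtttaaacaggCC
In the Cdk1 window TTTGAA begins 71 and 15 bases before the start, and in the Cdc20 window 18 bases before it. These distances are from the RefSeq start: the GENCODE start of Cdk1 lies further upstream, so that the second TTTGAA falls inside the gene as GENCODE places it. A match is a description and not a bound site. Members with both kinds of letters and the others did not stand far apart in their fold changes: the median log2 fold change between groups was 1.11 over the 29 tested members with both and 1.03 over the 15 tested members with 1 or none. Troap, which parted the groups most, held CCAAT but neither TTTGAA nor TTCGAA, and Nusap1 held none of these letters. The RefSeq start of Troap lies inside its GENCODE gene, so the letters were read there within the annotated transcript, and the stretch before the GENCODE start was not read as a promoter of its own.

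Library totals ran from 21181669 to 38945806 counts in NEO1+ and from 24509577 to 35349590 in NEO1- libraries, and genes with a count numbered 12800 to 13808 and 11477 to 13147. The sum of stem cell transcripts covered like ranges in both groups, although single markers differed: the 13 stem cell markers listed for this check, among them Kit, Hlf and Mecom, summed in NEO1+ libraries to 2613 to 2973 CPM (counts scaled to a common library size, after TMM adjustment) and in NEO1- libraries to 2585 to 3079 CPM. Of these 13, 2 had an unadjusted edgeR p under 0.05 with a higher level in NEO1+ (15.4%, against 3.11% of all genes). With a lower level there was 1, against 3.49% of all genes. Tek and Hoxb5 (15.4% of the 13, against 1.13% of all genes with a count) were in all NEO1+ libraries above all NEO1- libraries. DESeq2 called 1 of the 13 higher, Tek (adjusted p 5.82e-05), against 0.616% of all genes with an adjusted p. The share of counts on the ribosomal RNA gene Rn45s also moved with the groups, at 37.7%, 33.7%, 29.2%, 27.9% and 33.1% in NEO1+ libraries 1 to 5 and 42.3%, 42.4%, 40.5%, 30.7% and 36.0% in NEO1- libraries 1 to 5. NEO1- library 4, with the lowest share of its group, also had the most mitotic genes detected in it (47 of 51) and the most genes of any kind (13147). NEO1- library 1 had the fewest of each (38 of 51, and 11477). What part the Rn45s share had in the results was not tested beyond a fit without Rn45s. NEO1+ library 4 stood apart in the sorting marker itself, with Neo1 at 12.5 CPM against 48.6 to 64.8 CPM in the other NEO1+ libraries and 4.56 to 18.9 CPM in NEO1- libraries. Markers of other lineages were uneven between libraries. Mpo, the myeloperoxidase of granulocyte precursors, was over 100 CPM in NEO1+ libraries 1, 3 and 4 and NEO1- libraries 3 and 4, and at 9.03 CPM or less in the other 5. Klf1, an erythroid transcription factor, was highest in NEO1+ libraries 1 and 3 and NEO1- library 3, at 27.8, 29.9 and 25.5 CPM.

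The mitotic genes were higher in the NEO1+ libraries as a group, although no single member passed the test across all genes. Their summed level in NEO1+ libraries 1 to 5 was 1428, 1062, 1520, 1373 and 1070 CPM, while NEO1- libraries 1 to 5 had 663, 514, 873, 771 and 527 CPM. The lowest NEO1+ library therefore stood above the highest NEO1- library. The members made up 0.108% to 0.167% of all counts in NEO1+ and 0.0448% to 0.0819% in NEO1- libraries. Long and abundant transcripts weigh most in such a sum. In bulk libraries fewer cells in mitosis and less mitotic RNA per cell cannot be told apart.

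**Figure D1:**
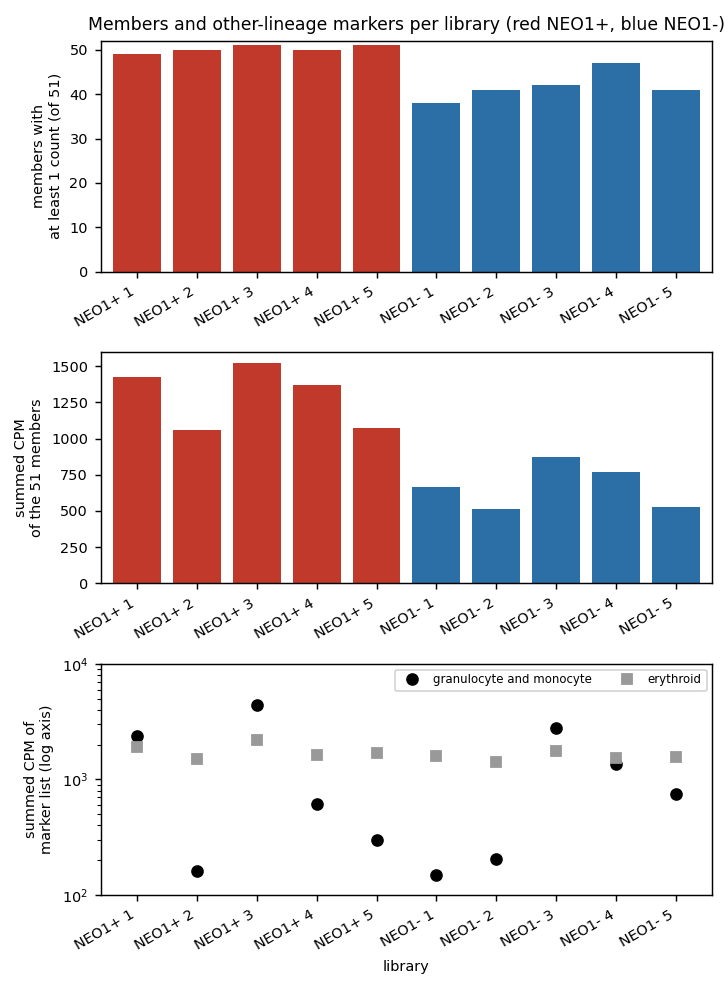
Top, members with at least 1 count per library (of 51); middle, summed CPM of the 51 members; bottom, summed CPM of the granulocyte and monocyte and the erythroid marker lists (black circles and grey squares) on a log axis, for the 5 NEO1+ (red bars) and 5 NEO1- (blue bars) libraries. Every NEO1+ library held at least 49 members and 1062 CPM, every NEO1- library at most 47 members and 873 CPM. The sums of these marker lists overlapped between groups.

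Detection separated the groups too. Of the 51 members, 49, 50, 51, 50 and 51 had at least 1 count in NEO1+ libraries 1 to 5, and 38, 41, 42, 47 and 41 in NEO1- libraries 1 to 5. The mean difference was 8.4 members, and it was 9 with more than 3 counts required. An observed 0 leaves at most 3 counts possible. By raw library totals, without the TMM adjustment of the other CPM values, this is 0.0770 to 0.142 CPM, depending on the library. Zero counts filled 4 of the 255 entries of members by libraries in NEO1+ (1.57%) and 46 of 255 in NEO1- (18.0%), while over all genes tested they filled 1.81% and 6.30%. In NEO1- libraries 27 members had a count of 0 in at least 1 library, and 24 were counted in all 5. In NEO1+ libraries 48 members were counted in all 5, the exceptions being Cit, Kif14 and Kif18b. Low but non-zero counts were rare: only 10 entries in NEO1- and 3 in NEO1+ libraries lay between 1 and 9 counts, so a member was usually either absent from a library or present with 10 or more reads. The libraries carry no molecular identifiers and were amplified by 18 cycles of PCR, so reads may be copies of 1 molecule, and any interval or floor given covers counting error alone.

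**Figure D2:**
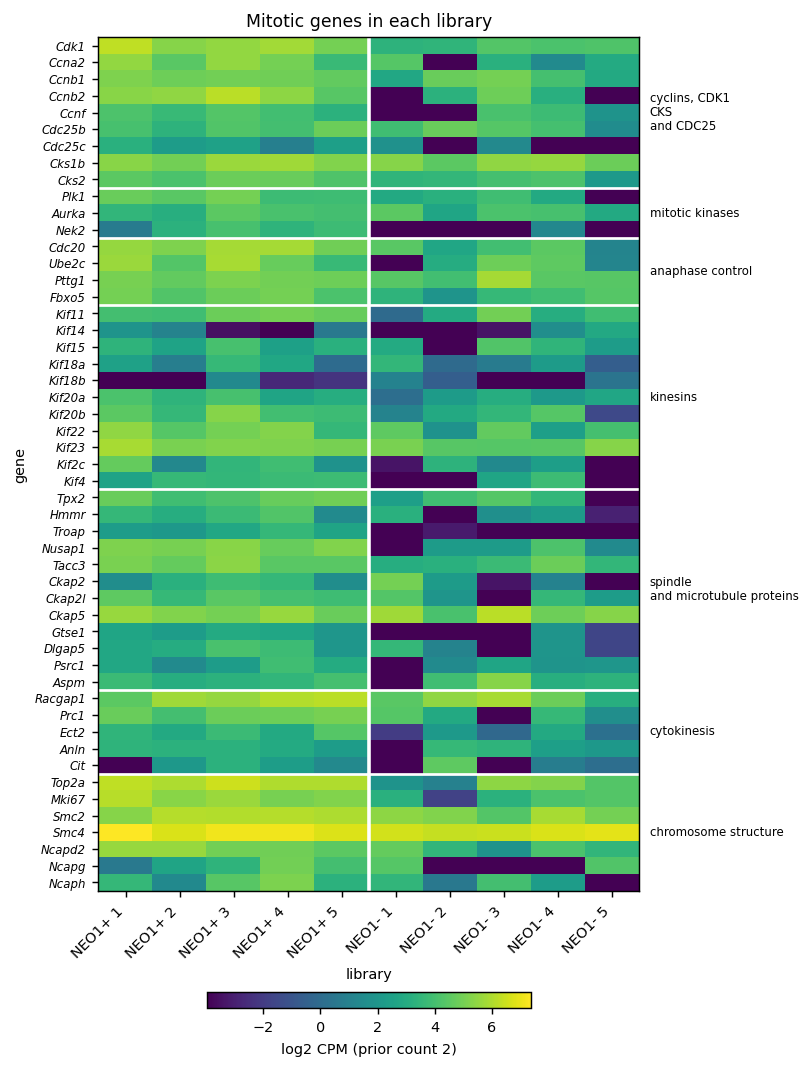
Log2 CPM (prior count 2) of the 51 members (rows, grouped by role) in the 10 libraries (columns; white line between NEO1+ and NEO1-). Dark cells are counts of 0, which fill 4 entries on the NEO1+ side and 46 on the NEO1- side.

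On the log2 scale, where a count of 0 reads -3.98, the spread between libraries was wider in NEO1- cells. The SD of log2 CPM was larger in NEO1- than in NEO1+ libraries for 48 of the 51 members (94.1%), against 78.3% of all genes tested, with a median SD of 2.4 against 0.53 (0.64 against 0.40 over all genes tested). On the CPM scale the SD was larger in NEO1+ for 27 members and in NEO1- for 24. NEO1+ library 3 was the highest of its group for 20 members and NEO1+ library 1 for 14. Among NEO1- libraries, library 3 was highest for 18 members, library 1 for 12 and library 4 for 11. Different members were high in different NEO1- libraries: Ckap2 reached 31.3 CPM in NEO1- library 1, where Ccnb2, Nusap1, Aspm and Anln had no count.

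By edgeR across all 12203 genes tested, 0 of the 50 members tested passed an adjusted p of 0.05 in either direction, against 0% of all genes in each direction. An unadjusted p under 0.05 with a higher level in NEO1+ was found for 15 members (30% of those tested), against 3.11% of all genes, and with a lower level for 0 members, against 3.49%. Of the 50 tested, 46 had a positive log2 fold change of NEO1+ over NEO1- and 4 a negative one. The median was 1.15, against 0.01 over all genes tested. Without NEO1+ library 3, 9 members had an unadjusted p under 0.05, against 2.27% of all genes higher, and the median, with each library left out in turn, ran from 1.01 to 1.27. DESeq2 called 2 members higher, Cdk1 and Troap, and 0 lower, against 0.616% of all genes with an adjusted p called higher and 0.383% lower. Neither limma-voom nor limma-trend on the deposited values called a member. The member not tested, Kif18b, a kinesin that shortens astral microtubules, failed the filter on low counts, with 0, 0, 112, 3 and 5 counts in NEO1+ libraries 1 to 5 and 62, 13, 0, 0 and 38 in NEO1- libraries 1 to 5.

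The ranges of the groups did not overlap for 8 of the 51 members (15.7%), with all NEO1+ above all NEO1- libraries, against 1.13% of all genes with a count and 1.35% of the genes tested by edgeR. These were Cdk1, Cdc20, Troap, Nusap1, Gtse1, Ect2, Top2a and Mki67. No member had all NEO1+ libraries below all NEO1- libraries, against 1.13% of the genes tested by edgeR. Without NEO1- library 1, or without NEO1- library 3, 13 members did not overlap, against 1.76% and 1.79% of all genes with a count.

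**Figure D3:**
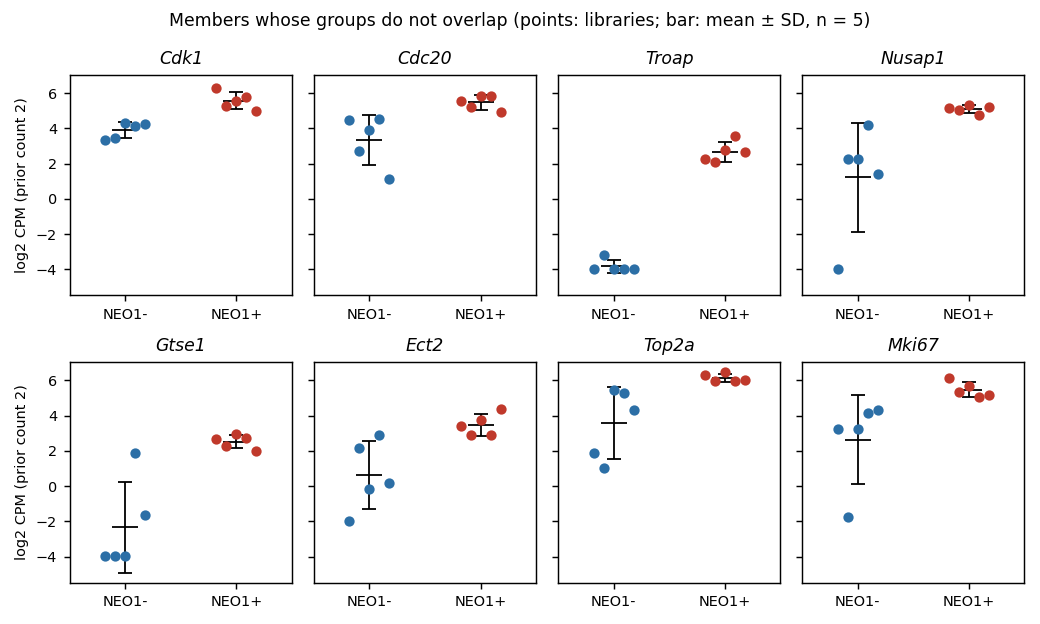
Log2 CPM (prior count 2) per library for the 8 members whose groups do not overlap, with NEO1- in blue, NEO1+ in red, and bars for the mean ± SD (n = 5). The NEO1+ points lie close together, while NEO1- points of Nusap1, Gtse1, Ect2, Top2a and Mki67 spread over several log2 units.

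Within each group, the libraries with Mpo over 100 CPM also had the higher sums of the mitotic genes. The granulocyte and monocyte list (14 genes) summed to 2389, 160.5, 4422, 610 and 302 CPM in NEO1+ libraries 1 to 5 and to 148, 206, 2800, 1354 and 747 CPM in NEO1- libraries 1 to 5, with 8 to 14 and 3 to 13 of its genes counted. The erythroid list (15 genes) ranged from 1495 to 2177 CPM in sum over NEO1+ libraries and from 1406 to 1751 CPM over NEO1- libraries, with Car2 making up most of it and the globins Hba-a2, Hbb-bs, Hbb-bt, Hbb-b1 and Hbb-b2 at 0 in all 10 and Hba-a1 at 1 count, in NEO1+ library 3. The megakaryocyte list (8 genes) summed to between 79.0 and 180 CPM in NEO1+ and between 88.4 and 144 CPM in NEO1- libraries, the lymphoid list (11 of 12 genes in the table) to 60.5 to 87.5 and 38.0 to 85.3 CPM with Cd3e, Ms4a1, Cd8a and Pax5 at 0 in all libraries, and the multipotent progenitor list (6 genes) to 54.3 to 116 and 73.2 to 122 CPM with Dntt at 0. The endothelial and stromal list (8 genes) lay between 83.7 and 126 CPM in NEO1+ and between 41.5 and 91.6 CPM in NEO1- libraries. In it Cdh5 and Lepr were at 0. Gene by gene, all 9 erythroid genes tested in edgeR had a positive log2 fold change (median 0.90), against 51% of all genes. So had all 5 endothelial and stromal genes tested (median 0.71), and 0 in either list had an unadjusted edgeR p under 0.05. The other lists were mixed, with 6 positive and 5 negative granulocyte and monocyte genes. Positive and negative genes numbered 3 and 4 for megakaryocyte, 2 and 1 for lymphoid, and 1 and 3 for multipotent progenitor. Among the 5 libraries with Mpo at 9.03 CPM or less, the summed level of the 51 members was 1062 and 1070 CPM in the 2 NEO1+ libraries and 663, 514 and 527 CPM in the 3 NEO1- libraries. In that subset the median log2 fold change of the members was 0.97, with 42 of 51 positive, and 24 members did not overlap between groups, against 10.6% of all genes with a count. Without NEO1+ libraries 1 and 3 the median was 0.91, 43 of 51 members were positive, and 5 had an unadjusted p under 0.05, against 1.74% of all genes higher. These subsets were chosen after the marker levels were seen. Whether these marker transcripts came from other cells, and what part such cells had in the difference between groups, was not tested.

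The regulators of CDK1 included 9 members, all with a positive log2 fold change (median 1.14), of which 3 had an unadjusted p under 0.05. Cdk1, the kinase that starts mitosis (chr10:69335146-69352938, minus strand), was at 77.8, 38.9, 46.0, 54.8 and 31.6 CPM in NEO1+ libraries 1 to 5. The values of NEO1- libraries 1 to 5 were 10.03, 10.9, 20.1, 17.4 and 18.8 CPM. Its lowest NEO1+ value was above its highest NEO1- value, and it was counted in all 10 libraries, as were Cdc20, Ect2, Top2a and Mki67 among the 8 separated genes. The means were 49.8 ± 17.8 and 15.4 ± 4.64 CPM (SD, n = 5 each) and the log2 fold change was 1.69 (SE 0.31; adjusted p 0.155 in edgeR). DESeq2 gave an adjusted p of 5.82e-05, and leaving out 1 library gave edgeR adjusted p values of 0.164 to 0.517. Ccna2, which encodes cyclin A2, the partner of CDK1 before the B cyclins, was at 46.5, 22, 45.9, 31.5 and 12.9 CPM in NEO1+ and 20.7, 0, 9.18, 2.64 and 7.57 CPM in NEO1- libraries (log2 fold change 1.98, SE 0.90, edgeR adjusted p 0.745). NEO1- library 1 exceeded NEO1+ library 5, so the ranges overlapped. Cks2, a small protein that binds CDK1, was at 22.6, 17.7, 27.7, 27.2 and 18.6 CPM in NEO1+ and 11.0, 11.3, 16.0, 18.4 and 4.43 CPM in NEO1- libraries (log2 fold change 0.90, SE 0.39, edgeR adjusted p 0.71), and only NEO1- library 4 reached into the NEO1+ range.

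Its relative Cks1b differed less, with a log2 fold change of 0.23 (SE 0.25) and 42.4 ± 9.41 against 36.3 ± 10.3 CPM (SD, n = 5 each). The B cyclins differed in how they were counted. Ccnb1 was present in all 10 libraries (24.8 to 35.5 CPM in the NEO1+ and 7.10 to 31.6 CPM in the NEO1- libraries), whereas Ccnb2 had no count in NEO1- libraries 1 and 5 and was at 9.03 to 29.2 CPM in the other 3, against 21.0 to 71.8 CPM in NEO1+ libraries. Ccnf, which encodes a cyclin that serves as a ubiquitin ligase subunit, was at 9.93 to 20.2 CPM in the NEO1+ and 0 to 17.3 CPM in the NEO1- libraries. The CDC25 phosphatases activate CDK1. Cdc25b was at 16.6, 10.2, 19.4, 15.6 and 28.0 CPM in NEO1+ and 14.5, 27.1, 20.6, 16.0 and 2.81 CPM in NEO1- libraries, so the groups overlapped widely, with NEO1- library 5 below all others (log2 fold change 0.15, SE 0.50), and without NEO1- library 5 the fold change was -0.12. Cdc25c was at 1.83 to 9.27 CPM in NEO1+ libraries and had no count in 3 NEO1- libraries.

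The 3 mitotic kinases behaved unlike each other. Nek2, a centrosome kinase (chr1:191821444-191833050, plus strand), was at 1.58, 9.72, 16.5, 10.4 and 13.7 CPM in NEO1+ libraries 1 to 5. In NEO1- cells it had 79 counts in library 4 (2.4 CPM) and 0 in the other 4. Only NEO1+ library 1 lay below NEO1- library 4. The log2 fold change was 4.41 (SE 1.75, edgeR adjusted p 0.633), and without NEO1- library 4 all NEO1- libraries were at 0. Plk1, the polo-like kinase, was at 27.1, 21.6, 31.8, 14 and 14.2 CPM in NEO1+ and 7.35, 9.32, 14.5, 7.36 and 0 CPM in NEO1- libraries (log2 fold change 1.49, SE 0.87, edgeR adjusted p 0.848). The ranges overlapped by a small margin, through NEO1- library 3. Aurka, the aurora A kinase of the spindle poles, was at 11.3, 8.70, 22.8, 17.1 and 15.4 CPM in NEO1+ and 22.9, 6.41, 17.8, 16.8 and 7.48 CPM in NEO1- libraries. Its log2 fold change of 0.08 (SE 0.45) was far below the spread between libraries.

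Among 4 genes of anaphase control, 2 had an unadjusted p under 0.05 and the median log2 fold change was 1.25. Cdc20, the activator of the anaphase-promoting complex, was at 47.5, 36.4, 57.3, 56.8 and 30.3 CPM in NEO1+ libraries 1 to 5 and 21.9, 6.6, 14.9, 22.7 and 2.15 CPM in NEO1- libraries 1 to 5. No NEO1- library reached the NEO1+ range. Its log2 fold change was 1.74 (SE 0.51), with an edgeR adjusted p of 0.451 and a DESeq2 adjusted p of 0.0634. Fbxo5, which encodes EMI1, an inhibitor of the same complex, was at 31.6, 19.6, 28.4, 31.5 and 17.7 CPM in NEO1+ and 10.4, 3.65, 12.2, 14.5 and 20.6 CPM in NEO1- libraries (log2 fold change 1.07, SE 0.42, edgeR adjusted p 0.629). NEO1- library 5 alone overlapped with NEO1+. Ube2c, its ubiquitin-conjugating enzyme, ranged from 12.5 CPM in NEO1+ library 5 to 57.8 CPM in NEO1+ library 3, with 50.2, 20.3 and 26.7 CPM in NEO1+ libraries 1, 2 and 4, and it was at 0, 8.05, 28.7, 23.0 and 2.22 CPM in NEO1- libraries 1 to 5 (log2 fold change 1.43, SE 0.98). Pttg1, which encodes securin, was at 32.8, 24.8, 35.1, 30.7 and 28.8 CPM in NEO1+ and 21.2, 15.3, 57.3, 21.7 and 21.1 CPM in NEO1- libraries. Its highest value of all 10 libraries was in NEO1- library 3, and its log2 fold change was 0.15 (SE 0.34).

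**Figure D4:**
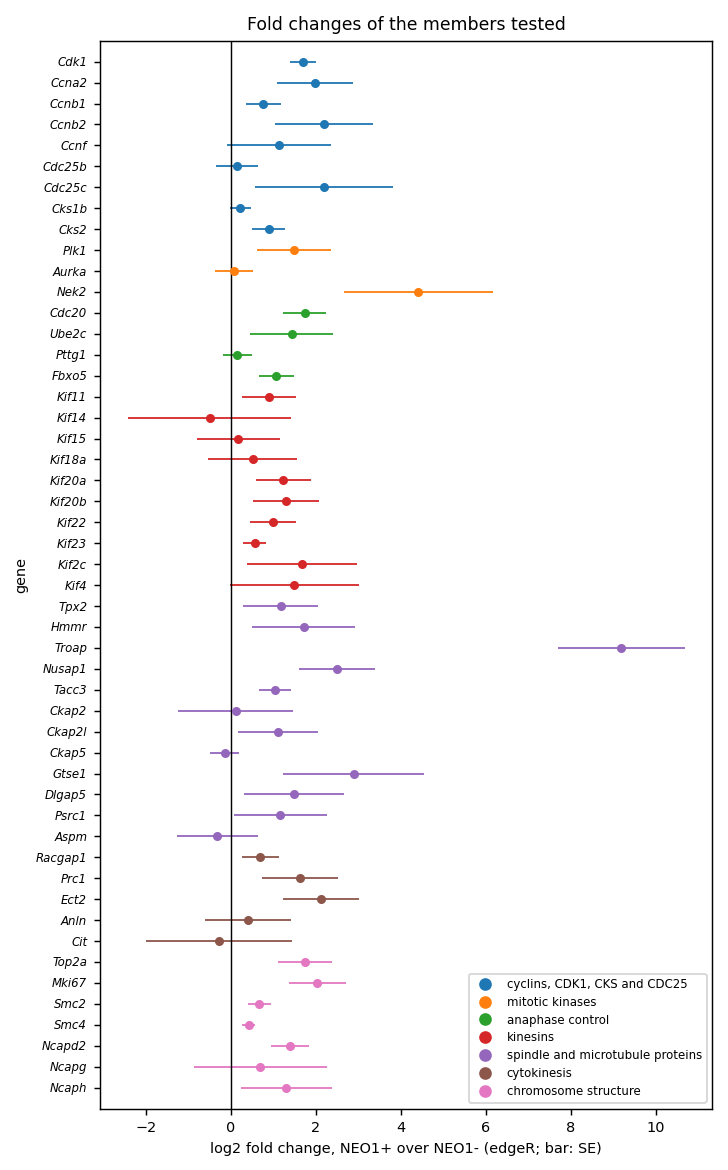
Log2 fold change of NEO1+ over NEO1- for the 50 members tested, with SE bars, coloured by role. Positive values make up 46 of 50, and the point of Troap at 9.19 comes from a NEO1- group with 1 count in all.

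The kinesins, motor proteins that slide or shorten microtubules, included 11 members, of which 10 were tested and 0 had an unadjusted p under 0.05. Their median log2 fold change was 0.95, with 9 positive and 1 negative. Kif23, a motor of the midzone that cytokinesis needs, was at 59.4, 33.7, 37.3, 36.0 and 32.4 CPM in NEO1+ and 33.6, 21.1, 20.4, 21.0 and 38.8 CPM in NEO1- libraries (log2 fold change 0.56, SE 0.27, edgeR adjusted p 0.784). Kif20a, which carries the chromosomal passenger complex to the midzone, was at 17.9, 10.6, 16.6, 6.11 and 8.36 CPM in NEO1+ and 1.02, 4.68, 8.54, 4.32 and 6.65 CPM in NEO1- libraries (log2 fold change 1.24, SE 0.64). In the GENCODE vM21 annotation 29.3% of its exon length overlaps Cdc23 on the other strand, so its reads are uncertain if strand was not used in counting. Kif22, which pushes chromosome arms, was at 44.2, 20.3, 32.1, 37.7 and 11.8 CPM in NEO1+ and 23.6, 3.46, 24.8, 5.32 and 15.9 CPM in NEO1- libraries (log2 fold change 1.0, SE 0.54). All 3 overlapped between groups.

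The other kinesins tested also overlapped between groups. Kif15, a second spindle-pushing motor, was at 10.6, 5.94, 16.6, 5.51 and 9.17 CPM in NEO1+ and 7.58, 0, 19.2, 10.7 and 4.76 CPM in NEO1- libraries (log2 fold change 0.18, SE 0.97). Kif14, a motor of late cytokinesis, was at 3.70, 2.10, 0.0233, 0 and 1.48 CPM in NEO1+ and 0, 0, 0.0339, 3.01 and 7.28 CPM in NEO1- libraries, with a log2 fold change of -0.50 (SE 1.93) that was 0.94 without NEO1- library 5. Kif11, the motor that parts the spindle poles, was counted in every library, at 14.8 to 31.5 CPM in the NEO1+ and 0.891 to 30.8 CPM in the NEO1- libraries. Kif4, a chromosome-bound motor, was at 5.91 to 13.8 CPM in NEO1+ and had no count in NEO1- libraries 1, 2 and 5. Kif2c, which takes microtubules apart at centromeres, was at 2.43 to 25.4 CPM in the NEO1+ and 0 to 10.2 CPM in the NEO1- libraries. Kif20b was at 11.9 to 39.3 and 0.298 to 20.5 CPM, and Kif18a, which limits chromosome swings at the spindle centre, was at 0.929 to 12.4 and 0.595 to 11.5 CPM.

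Of 12 spindle and microtubule proteins, 3 had an unadjusted p under 0.05, 10 had a positive and 2 a negative log2 fold change, and the median was 1.17. Troap, trophinin-associated protein, which binds spindle microtubules (chr15:99074575-99083409, plus strand), had 100, 163, 296, 390 and 213 counts in NEO1+ libraries 1 to 5, or 4.8, 4.17, 6.90, 11.9 and 6.18 CPM. In NEO1- cells it had a single count, in library 2, and 0 in libraries 1, 3, 4 and 5. It was the member that parted the groups most cleanly. The ratio of the summed counts, 1162 against 1, was 993 after scaling by library size, with a 95% interval of 178 to 39263. This interval covers the counting error of reads only, and neither PCR copies nor the spread between libraries. The edgeR adjusted p was 0.0747, the lowest of the members, and it ran from 0.137 to 0.288 when 1 library was left out; the DESeq2 adjusted p was 1.10e-12. Nusap1, which bundles microtubules near chromosomes, was at 36.1, 32.8, 40.6, 26.7 and 37.5 CPM in NEO1+ and 0, 4.68, 4.71, 18.5 and 2.65 CPM in NEO1- libraries. NEO1- library 4 was the nearest to the NEO1+ range (log2 fold change 2.51, SE 0.90, edgeR adjusted p 0.594). Tacc3, which stabilises spindle fibres, was at 33.4, 25.3, 41.6, 22.1 and 22 CPM in NEO1+ and 8.31, 9.27, 13.5, 28.0 and 11.6 CPM in NEO1- libraries (log2 fold change 1.03, SE 0.38, edgeR adjusted p 0.604). Again NEO1- library 4 alone overlapped.

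Gtse1, a microtubule-tip protein that also binds p53, was at 3.86 to 7.71 CPM in NEO1+ libraries and at 0, 0, 0, 3.68 and 0.265 CPM in NEO1- libraries 1 to 5. The groups were separate by a narrow gap, because of NEO1- library 4. Ckap2, a microtubule stabiliser, went the other way in a single library: it was at 2.93, 9.11, 14.2, 12.0 and 2.93 CPM in NEO1+ and 31.3, 4.68, 0.0339, 2.01 and 0 CPM in NEO1- libraries, for a log2 fold change of 0.12 (SE 1.36) that was 2.29 without NEO1- library 1. Ckap5, a microtubule polymerase that cells also use outside mitosis, was at 48.3, 37.5, 31.5, 48.9 and 27.4 CPM in NEO1+ and 53.9, 17.1, 73.7, 29.2 and 39.2 CPM in NEO1- libraries (log2 fold change -0.14, SE 0.34). Aspm, a spindle pole protein, was at 13.3, 8.52, 9.77, 11.1 and 16.2 CPM in NEO1+ and 0, 14.7, 39.7, 8.81 and 10.3 CPM in NEO1- libraries (log2 fold change -0.32, SE 0.96), and without NEO1- library 3 it was 0.48. These negative values were small beside the spread. Tpx2, the activator of aurora A, was at 14.6 to 29.9 CPM in the NEO1+ and 0 to 20.5 CPM in the NEO1- libraries. Hmmr was at 2.64 to 19.6 and 0 to 9.20 CPM, Ckap2l at 12.1 to 23.0 and 0 to 19.96 CPM, Dlgap5 at 3.89 to 17.0 and 0 to 11.7 CPM, and Psrc1 at 2.66 to 14.8 and 0 to 6.33 CPM, each with no count in 1 NEO1- library.

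The median log2 fold change of the 5 cytokinesis genes was 0.69, and 1 of them, Ect2, had an unadjusted p under 0.05. Ect2, the exchange factor that activates RhoA at the cleavage furrow, was at 10.8, 7.52, 13.6, 7.48 and 20.9 CPM in NEO1+ and 0.191, 4.35, 0.847, 7.42 and 1.09 CPM in NEO1- libraries. Its groups met almost exactly, at NEO1+ library 4 and NEO1- library 4 (log2 fold change 2.12, SE 0.89, edgeR adjusted p 0.705). Prc1, which crosslinks midzone microtubules, was at 27.4, 15.5, 28.2, 29.0 and 33.2 CPM in NEO1+ and 20.6, 7.40, 0, 12.2 and 3.04 CPM in NEO1- libraries (log2 fold change 1.62, SE 0.90). Racgap1, the partner of Kif23 in the centralspindlin complex, was at 22.7, 53.2, 47.9, 66.3 and 72.5 CPM in NEO1+ and 21.8, 44.7, 59.3, 28.4 and 8.63 CPM in NEO1- libraries (log2 fold change 0.69, SE 0.44). It was low in NEO1+ library 1, where Kif23 was highest. Cit, which encodes citron kinase of the late midbody, was at 0, 4.14, 9.91, 5.05 and 2.50 CPM in NEO1+ and 0, 23.6, 0, 1.73 and 1.03 CPM in NEO1- libraries, for a log2 fold change of -0.28 (SE 1.71) that was 2.64 without NEO1- library 2. Anln, the furrow scaffold anillin, was at 4.85 to 10.5 and 0 to 12.3 CPM.

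Of the 7 genes of chromosome structure, 5 had an unadjusted p under 0.05, and all 7 log2 fold changes were positive (median 1.31). Top2a, the topoisomerase that untangles sister chromatids, was at 78.3, 62.8, 89.5, 63.6 and 64.1 CPM in NEO1+ and 3.57, 1.97, 43.1, 38.4 and 20.1 CPM in NEO1- libraries. NEO1- libraries 1 and 2 were far below the other 3 (log2 fold change 1.74, SE 0.64, edgeR adjusted p 0.604). Mki67, which encodes the proliferation antigen Ki-67 that coats mitotic chromosomes, was at 71.6, 40.6, 50.7, 33.0 and 36.7 CPM in NEO1+ and 9.30, 0.234, 9.45, 17.8 and 19.9 CPM in NEO1- libraries. The groups were separate (46.5 ± 15.5 against 11.3 ± 7.83 CPM, SD, n = 5 each; log2 fold change 2.04, SE 0.67, edgeR adjusted p 0.548). Condensin subunits compact chromosomes. Ncapd2 was at 48.5, 49.0, 30.7, 29.6 and 22.8 CPM in NEO1+ and 25.4, 11.1, 3.49, 17.4 and 11.1 CPM in NEO1- libraries (log2 fold change 1.40, SE 0.44, edgeR adjusted p 0.529), and only NEO1- library 1 overlapped. The core ATPases were counted in all 10 libraries: Smc4 was at 107 to 164 CPM in the NEO1+ and 82.2 to 117 CPM in the NEO1- libraries (log2 fold change 0.42, SE 0.16), and Smc2 at 39.4 to 68.9 and 20.3 to 59.5 CPM (0.67, SE 0.27). Ncapg was at 1.44, 6.22, 10.4, 30.9 and 15.7 CPM in NEO1+ and 20.9, 0, 0, 0 and 19.1 CPM in NEO1- libraries (log2 fold change 0.69, SE 1.56), so 3 NEO1- libraries had no count and 2 exceeded 4 of the NEO1+ libraries. Ncaph was at 2.56 to 35.3 CPM in the NEO1+ and 0 to 15.5 CPM in the NEO1- libraries.

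Levels were also set against each other per kilobase of exon, with exon lengths from GENCODE vM21 (GRCm38), which may not be the annotation used in counting. In NEO1+ libraries the highest levels were those of Cks1b (37.7 ± 8.36 CPM per kb), Cks2 (32.9 ± 6.76), Ccnb2 (28.8 ± 11.9), Smc4 (25.1 ± 4.68) and Cdc20 (24.4 ± 6.48; SD, n = 5), and neighbours in this order did not differ beyond their spread. In NEO1- libraries the order was Cks1b (32.2 ± 9.16), Smc4 (18.8 ± 2.73), Cks2 (17.7 ± 7.76) and Pttg1 (13.7 ± 8.49), while Ccnb2 was at 6.28 ± 7.80 and Cdc20 at 7.31 ± 4.89 CPM per kb (SD, n = 5). Cks1b has a near copy in the mouse genome, Cks1brt, with which its reads could be shared. Exons that overlap a gene on the other strand also make the values of Ube2c (22.8% of its exon length, with Tnnc2), Kif4 (15.1%, Pdzd11), Ncapg (13.4%, Lcorl), Cdc25c (12.7%, Gm3550), Ccna2 (12.5%, Exosc9), Prc1 (11.1%, Rccd1) and Tacc3 (8.14%, Tmem129) uncertain if strand was not used in counting. At the low end of NEO1+ libraries stood Kif14 (0.141 ± 0.150), Kif18b (0.159 ± 0.320) and Cit (0.263 ± 0.223 CPM per kb; SD, n = 5).

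Other genes of the mitotic programme were read from lists written down for this purpose, also with earlier results of these data known. Of 51 other mitosis genes in the table, such as checkpoint, kinetochore and passenger genes, 48 were tested: 45 had a positive log2 fold change (median 1.21), 10 an unadjusted p under 0.05 and a higher level in NEO1+ (20.8%, against 3.11% of all genes), and 0 a lower one (against 3.49%), and 12 of the 51 did not overlap between groups (23.5%, against 1.13%). The smallest p values there were those of Hmgb2, a chromatin protein (191 ± 35.8 and 109 ± 34.8 CPM), Incenp, the scaffold of the passenger complex (41.3 ± 8.84 and 21.4 ± 6.63 CPM), and Birc5, or survivin, another passenger subunit (33.4 ± 13.7 and 12.1 ± 7.62 CPM; NEO1+ and NEO1-, SD, n = 5 each), and none passed in edgeR (adjusted p 0.368, 0.463 and 0.529). Among 24 genes that control the programme the median was 0.19 and 18 were positive. Tfdp1, the dimer partner of E2F factors, was at 143 ± 19.2 and 95.6 ± 16.8 CPM (log2 fold change 0.58, edgeR adjusted p 0.368), Rbl2, the pocket protein p130 of the DREAM complex, at 76.7 ± 14.7 and 53.5 ± 12.2 CPM (0.52, adjusted p 0.604), and Mybl2, which encodes B-MYB, at 11.0 ± 4.19 and 3.37 ± 3.74 CPM (1.71, adjusted p 0.866; SD, n = 5 each).

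Positive and negative values were nearly balanced in the lists of the anaphase-promoting complex and of cohesin. Of 16 genes of the anaphase-promoting complex and its partners, 9 had a positive and 7 a negative log2 fold change (median 0.06). Fzr1, the activator CDH1 that holds the complex active in G1 phase, was at 89.6 ± 6.6 and 57.0 ± 14.6 CPM (log2 fold change 0.65, edgeR adjusted p 0.437), Anapc16 at 29.2 ± 2.47 and 37.5 ± 4.54 CPM (-0.36, adjusted p 0.823), and Anapc5 at 272 ± 19.2 and 245 ± 29.0 CPM (0.15, adjusted p 0.898; SD, n = 5 each). Of 10 cohesin genes tested, 5 were positive and 5 negative (median -0.05), with Smc1a, a core ATPase of the ring, at 252 ± 48.8 and 299 ± 40.4 CPM, Pds5a at 34.7 ± 5.01 and 25.9 ± 7.48 CPM, and Stag1 at 44.8 ± 13.6 and 57.3 ± 7.34 CPM (edgeR adjusted p 0.823, 0.866 and 0.872; SD, n = 5 each). The condensin ATPases Smc2 and Smc4 thus had positive fold changes where the cohesin ATPase Smc1a had a negative one, a difference that was not tested.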

How the data were processed

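Counts of reads by gene symbol, not normalized, and a second table of log2 values were deposited by the authors, with 1 column for each library. Each log2 value equalled log2 of the count over 1 constant per library, plus 1 (largest residual 5.15e-14), and the file's name calls them DESeq2 size factors. The tools STAR 2.4, bcl2fastq 2.18 and DESeq2 1.22.2 and the build mm10 are named in the submitters' processing notes, with no role. The counting tool, annotation and strand setting were not given in the sources used here.

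The main test was quasi-likelihood edgeR (version 4.0.16, R 4.3.3) after filterByExpr and TMM, with robust dispersions and Benjamini-Hochberg adjustment over all 12203 genes tested and a threshold of 0.05. SE is |log2 fold change| divided by the root of the F statistic. CPM use TMM-scaled library sizes, and log2 CPM a prior count of 2. DESeq2 1.42.0, limma 3.58.1, RLE size factors, no filter, no Rn45s, a replicate block, a covariate for genes detected, and each library left out were alternatives. Of these fits, edgeR and DESeq2, each with and without the replicate block, and limma-voom were tested on data simulated with a fixed dispersion. The other alternatives were not tested in this way. Replicate libraries differed by at least 83.1 in chi-square per degree of freedom, so none was a repeat.

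The members and lists were chosen with earlier results of these data known. Library values are printed for up to 3 members per role of smallest edgeR p, the 1 of largest p, every member with a negative fold change and Troap; for other lists, the 3 genes of smallest p are named. Other genes named with values, such as Mpo, Klf1 and members given by range, fall outside that rule and were picked with their values in view. Promoter sequences are from RefSeq (GRCm38.p6) and gene positions from GENCODE vM21 (GRCm38).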

Additional observations from a re-analysis of the deposited data

Results flagged for a closer look

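In 64 groups of 5 values (30 members, the number of members detected and their summed CPM, each in both groups), 12 held 1 outlying value. Its gap to the next value, over the range of the group, exceeded Dixon's 95% critical value of 0.71. For normally distributed values chance gives about 1 in 20 groups, or 3.2. Values at 0 counts do not meet that condition, so 12 cannot be compared with 3.2. Where 4 values tie at 0 counts, as for Nek2 and Troap in NEO1-, any other value exceeds the limit. All values here are on the log2 CPM scale (prior count 2), where 0 counts read -3.98. In NEO1- library 5, Cdc25b was at 1.52 against at least 3.87 in the other NEO1- libraries, and Plk1 was at -3.98, having no count, against at least 2.89. In NEO1- library 2, Mki67 was at -1.75, from 5 counts, against at least 3.23, and Kif15 had no count (-3.98) against at least 2.27. Aspm had no count in NEO1- library 1 (-3.98), against at least 3.15 in the others of its group. Nek2 was at 1.30 in NEO1- library 4 and at -3.98 in the other NEO1- libraries, and at 0.72 in NEO1+ library 1 against at least 3.29 in the other NEO1+ libraries. Pttg1 was high in NEO1- library 3, at 5.84 against at most 4.45. Kif23 was high in NEO1+ library 1, at 5.89 against at most 5.22, while Cit had no count there (-3.98) against at least 1.36 in the other NEO1+ libraries. Prc1 was low in NEO1+ library 2, at 3.96 against at least 4.78. Troap was at -3.18 in NEO1- library 2 and -3.98 in the rest of its group, from 1 count against 0.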

How the results depend on the processing

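No edgeR fit called a member, whichever library was left out and under RLE size factors, no filter, no Rn45s, the replicate block or the covariate. The count of members called was 2 in DESeq2, against 0.616% of all genes with an adjusted p called higher. In DESeq2 with the replicate block the count was 16, all higher, against 4.43% of all genes. Over all genes it was 0 in edgeR and in edgeR with the replicate block, 146 (90 higher, 56 lower) in DESeq2, 742 (577 higher, 165 lower) in DESeq2 with the block, 2 in limma-voom, 1 in limma-trend, 2 without a filter, and 0 to 1 with each library left out (1 without NEO1- library 1). The median log2 fold change of the members was 1.66 with the block in edgeR, 2.22 in limma-voom and 2.09 in limma-trend; the cause was not tested. With genes detected as a covariate it was 1.03, and 7 members had an unadjusted p under 0.05, against 1.36% of all genes higher. Same-numbered libraries deviated together with correlations of 0.00 to 0.04 over all genes tested, and 3 of 5 NEO1+ libraries correlated best with their own number, so the block pairs libraries by number only. With it, 20 members had an unadjusted p under 0.05 in edgeR, against 4.29% of all genes higher. Members without overlap between groups numbered 8 to 13 with 1 library left out (against 1.49% to 2.16% of all genes). Without the libraries with Mpo over 100 CPM they numbered 24, against 10.6% of all genes with a count. That subset held only 2 NEO1+ and 3 NEO1- libraries, so its count cannot be set against that of all 10 libraries. Members detected differed by 7.45 to 9.7 with 1 library left out and 9.8 with at least 10 counts required. Direction reversed under some settings for 8 of the 30 members with printed library values and, with a library left out, for Kif18a (-0.03 to 1.5). With 1 library left out, the log2 fold change ran from -0.12 to 0.41 for Cdc25b, -0.12 to 0.31 for Aurka, -0.14 to 0.73 for Kif15, -0.21 to 2.29 for Ckap2, -0.85 to 2.64 for Cit, -1.19 to 0.94 for Kif14, -0.34 to 0.15 for Ckap5 and -0.64 to 0.48 for Aspm. With the replicate block in edgeR and in DESeq2, then in limma-voom and limma-trend, it was 1.46, 1.40, 2.54 and 1.70 for Cit, 0.45, 0.38, 0.54 and 0.76 for Kif14, and 0.38, 0.38, 1.68 and 1.36 for Aspm. With the covariate it was 0.51 for Ckap5 and 0.34 for Aspm. Leaving out libraries 1 and 3 of NEO1+, or the 5 libraries with Mpo over 100 CPM, was chosen after the marker levels were seen.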
